A study of Mus musculus with 12 samples.

Results

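The 55 genes described here drive the passage from G2 into mitosis and through it: cyclins and kinases of mitotic entry, the spindle checkpoint, the anaphase machinery, kinetochore and spindle proteins, cytokinesis factors and proteins of chromosome structure. They were chosen by name, and all 55 were found among the 24318 gene rows of the deposited tables. RNA was measured in N2a cells, a mouse neuroblastoma line that divides continuously in culture. The labels give 3 groups of 4 polyA RNA libraries each: SE-BDEV, cells given brain-derived extracellular vesicles (BDEV) with the prefix SE, which the series title ties to status epilepticus, a prolonged seizure state; CON-BDEV, cells given such vesicles with the prefix CON; and Vehicle, cells given the vehicle alone. All groups share the same cell line, and N2a is a single tumour line, so no group holds brain tissue. The sources used here do not give the vesicle dose, the exposure time, the animals from which vesicles came, or whether the 4 libraries of a group stand for separate cultures or vesicle preparations.

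As background, entry into mitosis is driven by Cdk1 bound to cyclin B, which Cdc25 phosphatases switch on and which Plk1 and Aurora kinases assist. The spindle checkpoint holds cells before anaphase until every kinetochore is attached, and the anaphase-promoting complex, with its activator Cdc20 and its ubiquitin-conjugating enzyme Ube2c, then destroys cyclin B and securin (Pttg1) and frees separase (Espl1) to cut cohesin. Most of these genes are transcribed in G2 and mitosis and kept low in G1, through promoter elements called CHR and CCAAT boxes that are bound by the DREAM and MuvB complexes, B-Myb, FoxM1 and NF-Y. In a bulk RNA sample their level therefore reflects both the share of cells in G2 and mitosis and the RNA of each such cell, and these cannot be told apart here.

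Of 51 member promoters, those of 9 members hold both elements in the 100 bases before the annotated start. From these, 6 are printed to show that arrangement beside the expression data. The share of all mouse promoters with both elements in this window was not counted. Sequences are RefSeq's for GRCm38.p6, 5′ to 3′ in the direction of transcription, with the CHR core (TTTGAA, or TTCAAA where it lies on the other strand) and the CCAAT box (CCAAT, or ATTGG on the other strand) in capitals. The positions are chr4:118437344-118437443 (minus strand) for Cdc20, chr2:164769829-164769928 (plus strand) for Ube2c, chr15:102296193-102296292 (plus strand) for Espl1, chr10:69352913-69353012 (minus strand) for Cdk1, chr2:91526662-91526761 (plus strand) for Ckap5 and chr7:131560270-131560369 (plus strand) for Bub3.
Cdc20: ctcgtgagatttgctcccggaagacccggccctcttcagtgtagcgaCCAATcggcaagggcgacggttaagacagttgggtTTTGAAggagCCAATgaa
Ube2c: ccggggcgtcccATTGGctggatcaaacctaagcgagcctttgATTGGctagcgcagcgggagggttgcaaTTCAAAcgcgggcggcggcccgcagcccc
Espl1: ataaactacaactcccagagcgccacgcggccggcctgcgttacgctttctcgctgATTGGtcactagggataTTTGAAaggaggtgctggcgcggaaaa
Cdk1: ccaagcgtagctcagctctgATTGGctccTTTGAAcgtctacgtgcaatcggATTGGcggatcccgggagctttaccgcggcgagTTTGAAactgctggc
Ckap5: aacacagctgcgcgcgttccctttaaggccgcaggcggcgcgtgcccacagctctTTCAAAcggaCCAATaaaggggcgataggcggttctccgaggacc
Bub3: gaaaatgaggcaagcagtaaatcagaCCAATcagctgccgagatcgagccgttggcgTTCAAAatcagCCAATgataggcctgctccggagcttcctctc

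RefSeq promoters, taken from 250 bases before to 50 bases after the start, were matched for 47 of the 55 members, some with several starts, giving 51 promoters. The CHR core stood on either strand in 37 of these 51 (72.5%), against 17.9% of all 32851 mouse promoters of the same length. CCAAT stood in 40 of 51 (78.4%), against 37.4% of all, and both elements in 33 of 51 (64.7%), against 6.95% of all. At least 2 CCAAT boxes were found in 51.0% of the members' promoters and 11.7% of all. Overlap of the 2 motifs was counted only in the shorter window of the printed sequences, where it was found in 0 of the members' promoters. Overlap in the rest of these promoters was not counted. A match is a description of letters and not evidence of binding.

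Levels are given as FPKM, in which a gene's fragments are divided by its transcript length and by the mapped fragments of the library, and differences as differences in log2(FPKM + 1), a scale that slightly understates the change of low genes. Sequencing depth, estimated from the smallest FPKM steps, ran from about 12300000 to 15300000 fragments a library, which gives the median member about 1504 to 2036 fragments and a counting SD of about 0.032 to 0.037 on the log2 scale. The library SE-BDEV 2 was the most often extreme. Over the 11312 genes that averaged 1 FPKM or more it was the lowest of the 12 libraries at 18.4% of genes and the highest at 15.9%. SE-BDEV 3 came next, as the lowest at 13.3% and the highest at 15.5%. The estimated depth of SE-BDEV 2, about 12900000, lay inside the range of its group, about 12500000 to 14400000. Counts and medians over the members are therefore given with and without SE-BDEV 2. The SE-BDEV differences of single members include it. The 12 markers used for the sympathoadrenal lineage, from which neuroblastoma arises, each averaged 1 FPKM or more. Their summed level was 1310 to 1449 FPKM in SE-BDEV, 1381 to 1467 in CON-BDEV and 1305 to 1361 in Vehicle.

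All 55 members passed the filter of a mean of at least 1 FPKM. In Vehicle they were well expressed, and the order of their levels ran from Cdc25c, a Cdk1-activating phosphatase, at 10.6 ± 0.465 FPKM (SD, n = 4; percentile 38.1 of the genes tested) to Racgap1, the GTPase-activating subunit of centralspindlin, at 295 ± 5.58 FPKM (SD, n = 4; percentile 97.8). Top2a, the topoisomerase that untangles sister DNA, stood at 251 ± 4.39 FPKM, Ube2c at 207 ± 8.33 and Ccnb1, cyclin B1, at 195 ± 3.17 (SD, n = 4 each). Neighbours in that order were not always separate: the Vehicle libraries of Ube2c and Ccnb1 overlapped, while those of Top2a lay above both and those of Racgap1 above Top2a. Across the 4 Vehicle libraries the members were steadier than most genes: the median SD was 0.037 for the members and 0.057 for all genes tested, on the log2 scale. The counting SD of the median member in Vehicle was about 0.032 to 0.033, and the genes tested reach down to a mean of 1 FPKM. The part of expression level in this difference was not tested. That closeness between Vehicle libraries was not found in the vesicle groups, where the median member SD was 0.11 in SE-BDEV (0.090 for all genes) and 0.081 in CON-BDEV (0.074 for all genes).

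**Figure D1:**
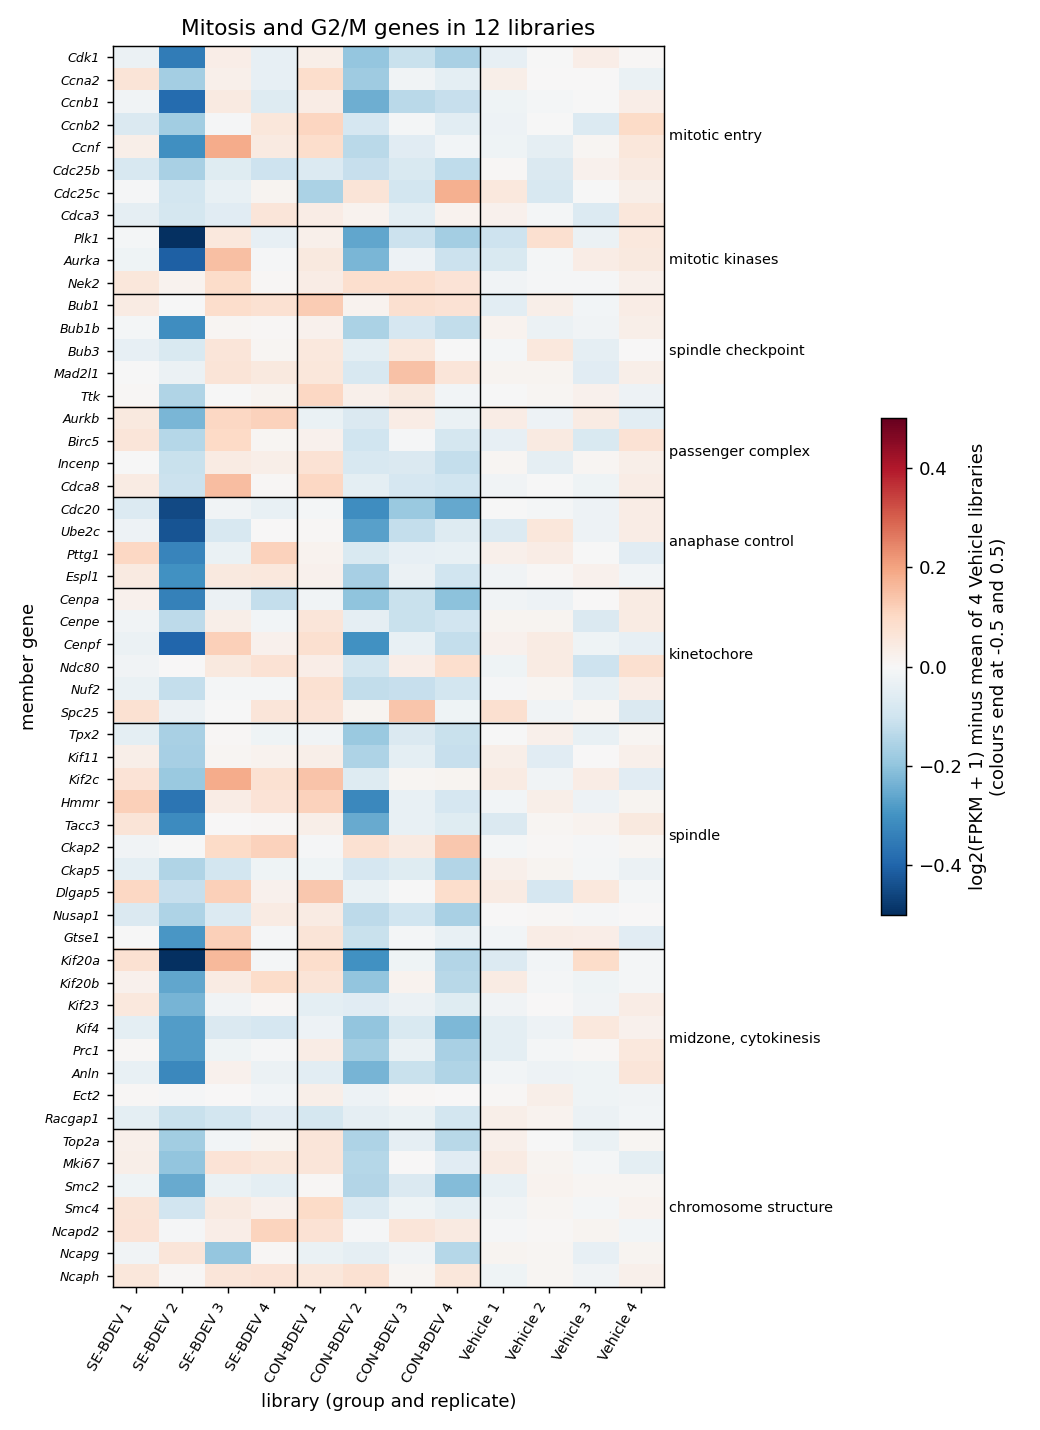
Log2(FPKM + 1) of each of the 55 members (rows, grouped by role) in each of the 12 libraries (columns), minus the mean of the 4 Vehicle libraries. Blue is below and red above Vehicle, and colours end at -0.5 and 0.5. The column SE-BDEV 2 is blue in 51 of 55 rows and CON-BDEV 2 in 47 of 55.

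The first comparison asked whether vesicles labelled SE moved the mitotic genes away from Vehicle. No member passed: 0 of 55 reached an adjusted p of 0.05 in limma (Benjamini-Hochberg over all genes), against 0.919% of the 11311 genes tested. At an unadjusted p under 0.05, 3 members were found, all lower in SE-BDEV, against 14.8% of all genes in either direction and 6.89% on the lower side. The median member difference was -0.036, with members between -0.14 and 0.052, and 41 of 55 lay below 0, where 45.4% of all genes did and the median of all genes was 0.0094. The widest 95% confidence intervals of single members reached -0.37 and 0.20, and 35 of 55 intervals lay wholly within 0.2 of 0. Without SE-BDEV 2 the median turned to 0.016, with 20 members below 0 and 35 above, and still 0 passed, while the count over all genes rose from 104 to 315. Members then ran from -0.082 (Cdc25b) to 0.11 (Kif2c), and 6 reached an unadjusted p under 0.05 in limma, against 19.8% of all genes.

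The second comparison set vesicles labelled CON against Vehicle. Again 0 of 55 members passed in limma, against 2.84% of 11320 genes, and 13 reached an unadjusted p under 0.05 (19.1% of all genes), 12 of them lower (9.56% of all genes) and 1, Nek2, higher (9.58%). The median member difference was -0.050, with a range of -0.19 to 0.074, and 41 of 55 lay below 0 against 48% of all genes. The smallest adjusted p was 0.0970. The count rested on 1 library, CON-BDEV 1, which had the highest values for 11 members. Without it 6 members fell past the threshold, namely Cdc20, Cdk1, Ccnb1, Cenpa, Anln and Nusap1, while 4.91% of all genes passed in either direction. In that fit 27 of 55 members reached an unadjusted p under 0.05 in limma, against 22.3% of all genes, and the median member difference was -0.082. Without CON-BDEV 2 the median was -0.026 and 0 members passed.

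With the 8 vesicle libraries pooled, 0 of 55 members passed against Vehicle, where 3.37% of 11312 genes did, and 6 reached an unadjusted p under 0.05 (18.8% of all genes), all lower (8.67%). The median member difference was -0.045, and 0.0053 without the libraries numbered 2 of both vesicle groups, when 25 members lay below 0 and 30 above; without SE-BDEV 2 alone it was -0.0094. The third question, whether the kind of vesicle mattered, gave 0 of 55 members past the threshold in SE-BDEV against CON-BDEV, where limma called 0% of 11312 genes. At an unadjusted p under 0.05, 0 members and 2.62% of all genes were found. The median member difference was 0.011 and the members' 95% intervals reached at most -0.23 and 0.28, with 49 of 55 wholly within 0.2 of 0. The median was 0.074 without SE-BDEV 2, -0.012 without CON-BDEV 2 and 0.046 without both. Both vesicle groups were set against the same 4 Vehicle libraries, so their differences from Vehicle are given side by side and were not correlated. The authors' deposited table, made with Cuffdiff, also listed 0 members as significant in either comparison with Vehicle, with smallest q-values of 0.661 for SE-BDEV and 0.360 for CON-BDEV.

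**Figure D2:**
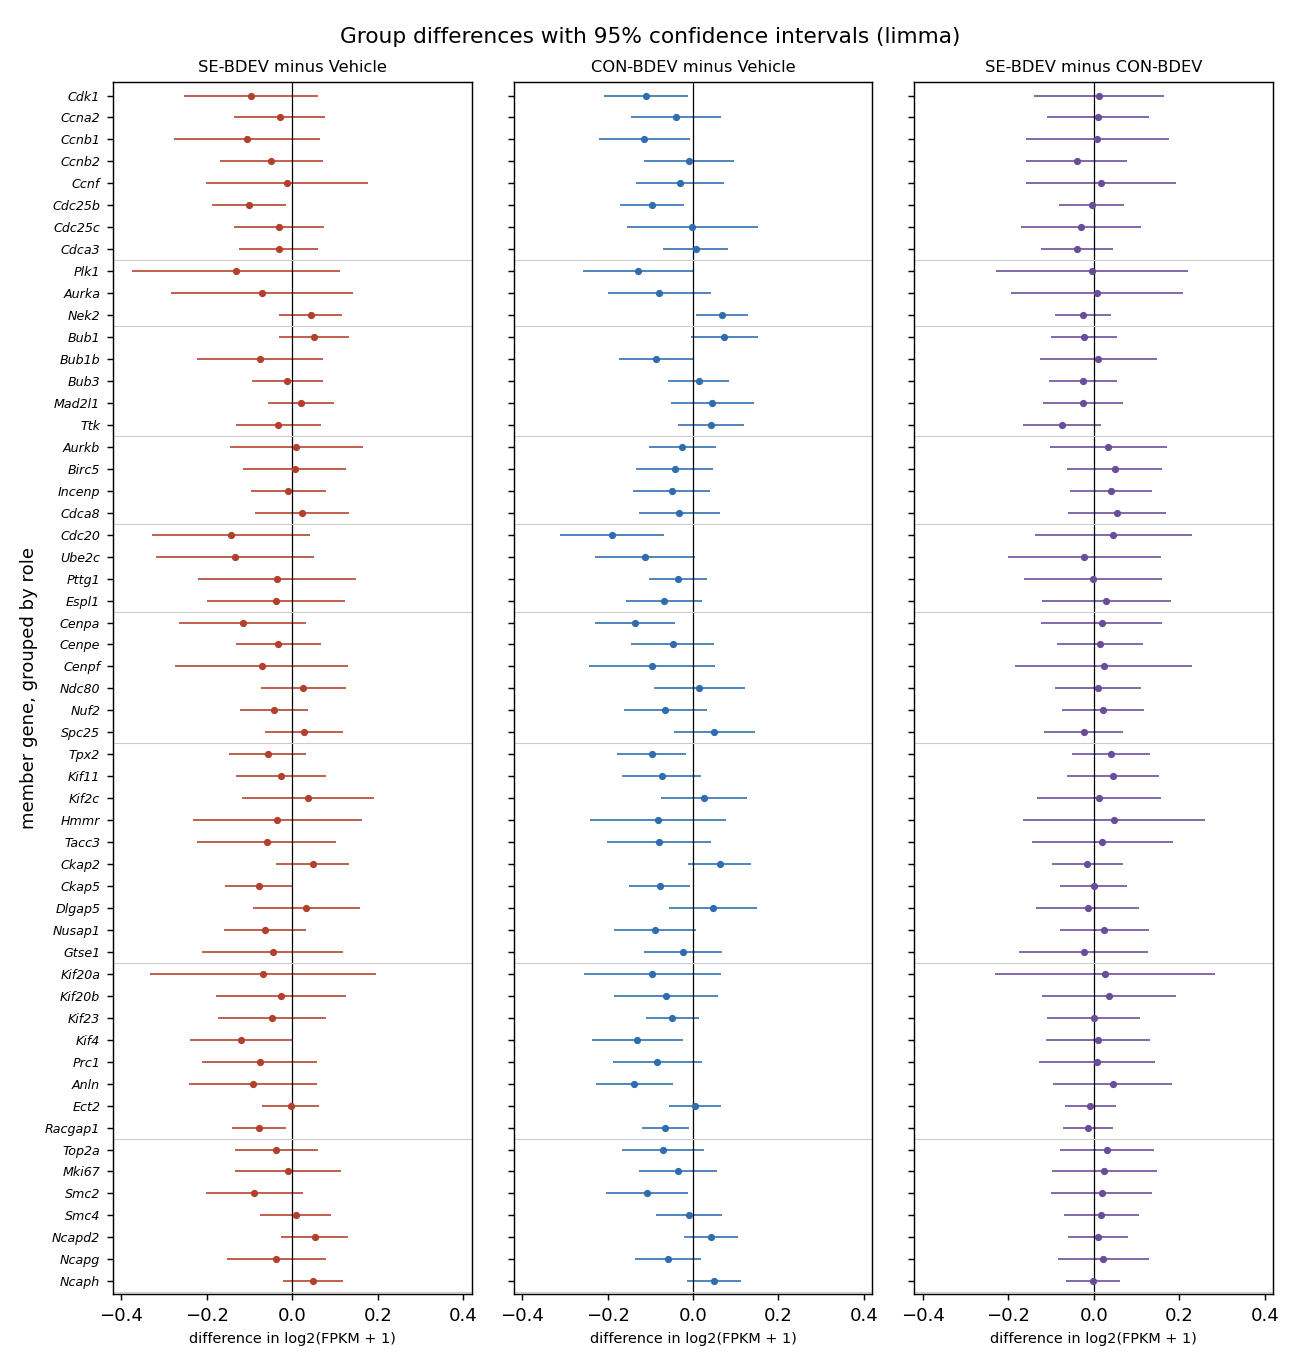
Differences between groups in log2(FPKM + 1) for the 55 members (rows, grouped by role), as points with 95% confidence intervals from limma, for SE-BDEV minus Vehicle, CON-BDEV minus Vehicle and SE-BDEV minus CON-BDEV. Points in the first panel run from -0.14 to 0.052 and those in the second from -0.19 to 0.074, and none passed after adjustment.

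Among the genes of mitotic entry, none passed, and all 8 lay below Vehicle in SE-BDEV and 7 of 8 in CON-BDEV. In this and the following sentences the values of libraries 1 to 4 are given in that order. Cdk1, the kinase that starts mitosis, stood at 93.2, 74.5, 97.3 and 92.4 FPKM in SE-BDEV, 97.2, 83.0, 88.0 and 84.9 in CON-BDEV and 92.5, 95.1, 97.6 and 95.6 in Vehicle. Ccnb1, its cyclin partner, stood at 193, 149, 201 and 186 FPKM in SE-BDEV, 199.9, 165, 178 and 179.8 in CON-BDEV and 192, 194, 195 and 199 in Vehicle. In both genes SE-BDEV 2 was the lowest library and CON-BDEV 2 the next, and the vesicle groups overlapped Vehicle through SE-BDEV 1 and 3 and CON-BDEV 1. Cdk1 differed from Vehicle by -0.098 ± 0.071 (limma adjusted p = 0.554) in SE-BDEV and by -0.11 ± 0.045 (limma adjusted p = 0.210) in CON-BDEV. Ccnb1 gave -0.11 ± 0.077 (limma adjusted p = 0.557) and -0.11 ± 0.048 (limma adjusted p = 0.231). Cdc25b, a phosphatase that activates Cdk1, stood at 33.9, 32.0, 34.3 and 33.3 FPKM in SE-BDEV, 34.1, 33.1, 34.0 and 32.8 in CON-BDEV and 36.0, 34.1, 36.5 and 37.1 in Vehicle. Its 8 vesicle libraries lay between 32.0 and 34.3 FPKM and overlapped Vehicle only at Vehicle 2, and it gave the smallest p of the members with both vesicle groups together, -0.099 ± 0.031 (limma adjusted p = 0.0986). Cdca3, also known as Tome-1, a factor for degradation of the Cdk1-inhibiting kinase Wee1, stood at 56.7, 54.96, 56.2 and 61.0 FPKM in SE-BDEV, 60.1, 59.2, 56.5 and 59.3 in CON-BDEV and 59.4, 58.1, 55.7 and 60.9 in Vehicle. It was among the 3 members with the smallest p on the lower side of SE-BDEV against CON-BDEV, at -0.039 ± 0.039 (limma adjusted p = 1.00).

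Of the 3 mitotic kinases outside the complexes, Plk1 and Aurka had wide spreads in SE-BDEV and Nek2 did not. Plk1, which promotes entry, spindle assembly and cytokinesis, stood at 61.3, 42.4, 64.0 and 59.9 FPKM in SE-BDEV, 62.7, 51.4, 57.1 and 54.7 in CON-BDEV and 57.4, 65.2, 60.4 and 63.9 in Vehicle. Aurka, the centrosomal Aurora kinase, stood at 48.9, 37.2, 55.2 and 49.5 FPKM in SE-BDEV, 51.4, 42.2, 48.8 and 46.0 in CON-BDEV and 47.1, 49.3, 51.0 and 51.4 in Vehicle. SE-BDEV 2 was the lowest of the 12 libraries for both, and the other 3 SE-BDEV libraries lay among the Vehicle values, but for SE-BDEV 3 above them at Aurka. Plk1 differed from Vehicle by -0.13 ± 0.11 (limma adjusted p = 0.614) in SE-BDEV and -0.13 ± 0.059 (limma adjusted p = 0.265) in CON-BDEV, and Aurka by -0.072 ± 0.096 (limma adjusted p = 0.774) and -0.078 ± 0.055 (limma adjusted p = 0.475). Nek2, a kinase of centrosome separation, stood at 39.2, 38.1, 40.2 and 37.8 FPKM in SE-BDEV, 38.7, 40.0, 39.9 and 39.5 in CON-BDEV and 37.2, 37.5, 37.6 and 38.4 in Vehicle. All 4 CON-BDEV libraries lay above all 4 Vehicle libraries, 1 of 55 members to do so against 5.67% of all genes, and the difference of 0.068 ± 0.028 (limma adjusted p = 0.214) did not pass.

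Of the 5 spindle checkpoint genes, 3 lay below Vehicle in SE-BDEV and 1, Bub1b, in CON-BDEV, and none passed. Bub1, a checkpoint kinase at the kinetochore, stood at 32.5, 31.5, 33.6 and 33.4 FPKM in SE-BDEV, 34.6, 31.9, 33.4 and 33.3 in CON-BDEV and 30.4, 32.3, 31.3 and 32.4 in Vehicle. It was among the 3 members with the smallest p on the higher side in both comparisons with Vehicle, at 0.051 ± 0.037 (limma adjusted p = 0.560) in SE-BDEV and 0.074 ± 0.035 (limma adjusted p = 0.282) in CON-BDEV, with overlapping libraries in each. Ttk, the kinase Mps1 that starts checkpoint signalling, stood at 20.9, 18.6, 20.8 and 21.0 FPKM in SE-BDEV, 22.4, 21.1, 21.5 and 20.6 in CON-BDEV and 20.7, 20.9, 21.1 and 20.4 in Vehicle and had the smallest p of the lower members in SE-BDEV against CON-BDEV, -0.074 ± 0.043 (limma adjusted p = 1.00). Bub1b, Bub3 and Mad2l1, subunits of the inhibitor that holds Cdc20, differed from Vehicle by -0.075 ± 0.066, -0.012 ± 0.038 and 0.021 ± 0.035 in SE-BDEV. In CON-BDEV their differences were -0.086 ± 0.039, 0.014 ± 0.033 and 0.045 ± 0.044.

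In the chromosomal passenger complex, which corrects faulty attachments and guides cytokinesis, the 4 members lay between -0.0093 ± 0.040 for Incenp and 0.022 ± 0.050 for Cdca8 in SE-BDEV against Vehicle. In CON-BDEV all 4 lay below Vehicle, between -0.050 ± 0.041 for Incenp and -0.025 ± 0.036 for Aurkb. Aurkb, its kinase, stood at 36.2, 29.7, 37.6 and 38.0 FPKM in SE-BDEV, 34.2, 33.2, 35.9 and 34.1 in CON-BDEV and 36.0, 34.4, 36.0 and 33.7 in Vehicle. Birc5, survivin, stood at 139, 121, 143 and 134 FPKM in SE-BDEV, 135, 124, 133 and 125 in CON-BDEV and 129, 138, 126 and 140.1 in Vehicle, and Cdca8, borealin, at 73.7, 66.3, 79.8 and 71.8 FPKM in SE-BDEV, 77.0, 69.2, 67.6 and 66.7 in CON-BDEV and 70.7, 71.6, 70.6 and 73.6 in Vehicle. SE-BDEV 2 was the lowest SE-BDEV library for each of these, and the groups overlapped. Cdca8 and Birc5 gave the smallest p of the higher members in SE-BDEV against CON-BDEV, at 0.054 ± 0.054 (limma adjusted p = 1.00) and 0.049 ± 0.052 (limma adjusted p = 1.00).

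All 4 genes of anaphase control lay below Vehicle in both vesicle groups, and none passed. Cdc20, the anaphase-promoting complex activator whose promoter is printed above, stood at 41.5, 31.6, 43.1 and 42.5 FPKM in SE-BDEV, 43.3, 35.0, 38.3 and 36.4 in CON-BDEV and 43.6, 43.3, 42.8 and 44.7 in Vehicle. Its 4 Vehicle libraries lay within 42.8 to 44.7 FPKM, as did SE-BDEV 3 and CON-BDEV 1, and the other 6 vesicle libraries lay below them. It had the smallest p of any member against Vehicle, -0.19 ± 0.055 (limma adjusted p = 0.0970) in CON-BDEV, beside -0.14 ± 0.084 (limma adjusted p = 0.457) in SE-BDEV, and without CON-BDEV 1 the first of these was -0.25 ± 0.036 (limma adjusted p = 0.00552). Ube2c, Pttg1 and Espl1 differed from Vehicle by -0.13 ± 0.083, -0.036 ± 0.084 and -0.039 ± 0.073 in SE-BDEV. The Cdc20 row, at chr4:118100697-118109948 in the mm9 build, overlaps that of Elovl1, and 11 of the 55 members' rows overlap another gene's row. Nothing in the sources used here says whether counting used the strand, and fragments of Cdc20 and Elovl1, Kif20a and its neighbours Brd8 and Cdc23, Ccna2 and Exosc9, Nusap1 and Oip5, or Ncapg and Lcorl could have been split between them.

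Kinetochore members, which tie chromosomes to microtubules, lay between -0.12 and 0.027 in SE-BDEV and between -0.13 and 0.050 in CON-BDEV. Cenpf, a large kinetochore and matrix protein, stood at 38.7, 29.8, 43.0 and 40.1 FPKM in SE-BDEV, 41.9, 31.9, 38.5 and 36.3 in CON-BDEV and 40.1, 40.7, 38.9 and 38.4 in Vehicle, with SE-BDEV 2 and CON-BDEV 2 the lowest libraries and the groups overlapping. It differed from Vehicle by -0.072 ± 0.091 (limma adjusted p = 0.762) and -0.095 ± 0.067 (limma adjusted p = 0.476). Cenpa, the histone of centromeric chromatin, stood at 56.9, 44.1, 54.9 and 51.5 FPKM in SE-BDEV, 55.3, 48.6, 51.9 and 48.4 in CON-BDEV and 55.4, 55.1, 56.1 and 57.6 in Vehicle. It was among the 3 lower members with the smallest p in CON-BDEV, -0.13 ± 0.042 (limma adjusted p = 0.117), where CON-BDEV 1 lay among the Vehicle values and the other 3 below them.

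Of the 10 spindle members, 7 lay below Vehicle in each vesicle group and none passed. Tpx2, which activates Aurka on spindle microtubules, stood at 53.2, 49.1, 55.3 and 54.3 FPKM in SE-BDEV, 54.4, 48.4, 52.3 and 51.0 in CON-BDEV and 55.1, 56.1, 53.7 and 55.5 in Vehicle. Its differences were -0.057 ± 0.041 (limma adjusted p = 0.549) in SE-BDEV and -0.097 ± 0.037 (limma adjusted p = 0.183) in CON-BDEV, and 0.040 ± 0.043 (limma adjusted p = 1.00) between the vesicle groups. Ckap2, a spindle microtubule protein, stood at 43.3, 43.8, 46.9 and 47.6 FPKM in SE-BDEV, 43.7, 46.3, 45.3 and 48.2 in CON-BDEV and 43.5, 44.1, 43.7 and 44.1 in Vehicle and lay on the higher side, at 0.062 ± 0.033 (limma adjusted p = 0.340) in CON-BDEV. Kif11, the motor that pushes spindle poles apart, gave -0.027 ± 0.048 and -0.073 ± 0.042, and Kif2c, a microtubule-depolymerizing kinesin, 0.037 ± 0.070 and 0.025 ± 0.046.

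All 8 genes of the spindle midzone and cytokinesis lay below Vehicle in SE-BDEV and 7 of 8 in CON-BDEV. Racgap1 stood at 285, 273, 276 and 283 FPKM in SE-BDEV, 277, 286, 288 and 277 in CON-BDEV and 301, 298, 289 and 292 in Vehicle. All 8 vesicle libraries lay below all 4 Vehicle libraries, and it was the 1 member with no overlap in SE-BDEV, where 4.38% of all genes were wholly below Vehicle and 5.77% wholly above. The difference was small, -0.078 ± 0.029 (limma adjusted p = 0.236) in SE-BDEV and -0.065 ± 0.025 (limma adjusted p = 0.193) in CON-BDEV. Kif4, a chromokinesin that shapes the midzone with Prc1, stood at 25.9, 21.9, 25.5 and 25.3 FPKM in SE-BDEV, 26.3, 23.2, 25.4 and 22.8 in CON-BDEV and 25.9, 26.3, 27.8 and 27.2 in Vehicle, with differences of -0.12 ± 0.054 (limma adjusted p = 0.333) and -0.13 ± 0.048 (limma adjusted p = 0.172). Anln, the actin-binding protein anillin of the contractile ring, stood at 35.4, 28.9, 37.0 and 35.7 FPKM in SE-BDEV, 35.1, 30.9, 33.6 and 32.7 in CON-BDEV and 36.1, 35.8, 35.9 and 38.0 in Vehicle, and all 4 CON-BDEV libraries lay below all 4 Vehicle libraries, at -0.14 ± 0.041 (limma adjusted p = 0.101). That separation held for 3 members in CON-BDEV, Anln, Racgap1 and Kif23, against 6.23% of all genes. Prc1, which bundles midzone microtubules, stood at 69.0, 56.4, 67.7 and 68.4 FPKM in SE-BDEV, 70.5, 60.8, 67.2 and 61.4 in CON-BDEV and 66.5, 68.3, 69.0 and 71.4 in Vehicle and gave -0.077 ± 0.060 (limma adjusted p = 0.596) and -0.083 ± 0.047 (limma adjusted p = 0.371), with SE-BDEV 2 lowest and overlap elsewhere.

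Among genes of chromosome structure, Top2a stood at 256, 222, 249 and 254 FPKM in SE-BDEV, 262, 225, 244 and 228 in CON-BDEV and 256, 251, 245 and 253 in Vehicle and Mki67, the proliferation antigen Ki-67 that coats mitotic chromosomes, at 111, 94.8, 114 and 113 FPKM in SE-BDEV, 114, 98.5, 109 and 105 in CON-BDEV and 112, 110.0, 108 and 105 in Vehicle. Both were lowest in SE-BDEV 2 and next lowest in CON-BDEV 2, and they differed from Vehicle by -0.037 ± 0.044 (limma adjusted p = 0.740) and -0.011 ± 0.056 (limma adjusted p = 0.952) in SE-BDEV. Of the condensin subunits, which compact chromosomes, Ncaph stood at 44.8, 43.2, 45.0 and 45.2 FPKM in SE-BDEV, 44.8, 45.5, 43.4 and 44.8 in CON-BDEV and 42.4, 43.4, 42.6 and 43.9 in Vehicle and Ncapd2 at 37.0, 35.1, 36.1 and 38.1 FPKM in SE-BDEV, 37.1, 35.1, 36.8 and 36.4 in CON-BDEV and 35.1, 35.4, 35.6 and 34.9 in Vehicle. These lay on the higher side in SE-BDEV, at 0.048 ± 0.032 (limma adjusted p = 0.516) and 0.052 ± 0.035 (limma adjusted p = 0.523), with overlap of the groups. The other condensin genes, Smc2, Smc4 and Ncapg, gave -0.089 ± 0.051, 0.0081 ± 0.037 and -0.037 ± 0.052.

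**Figure D3:**
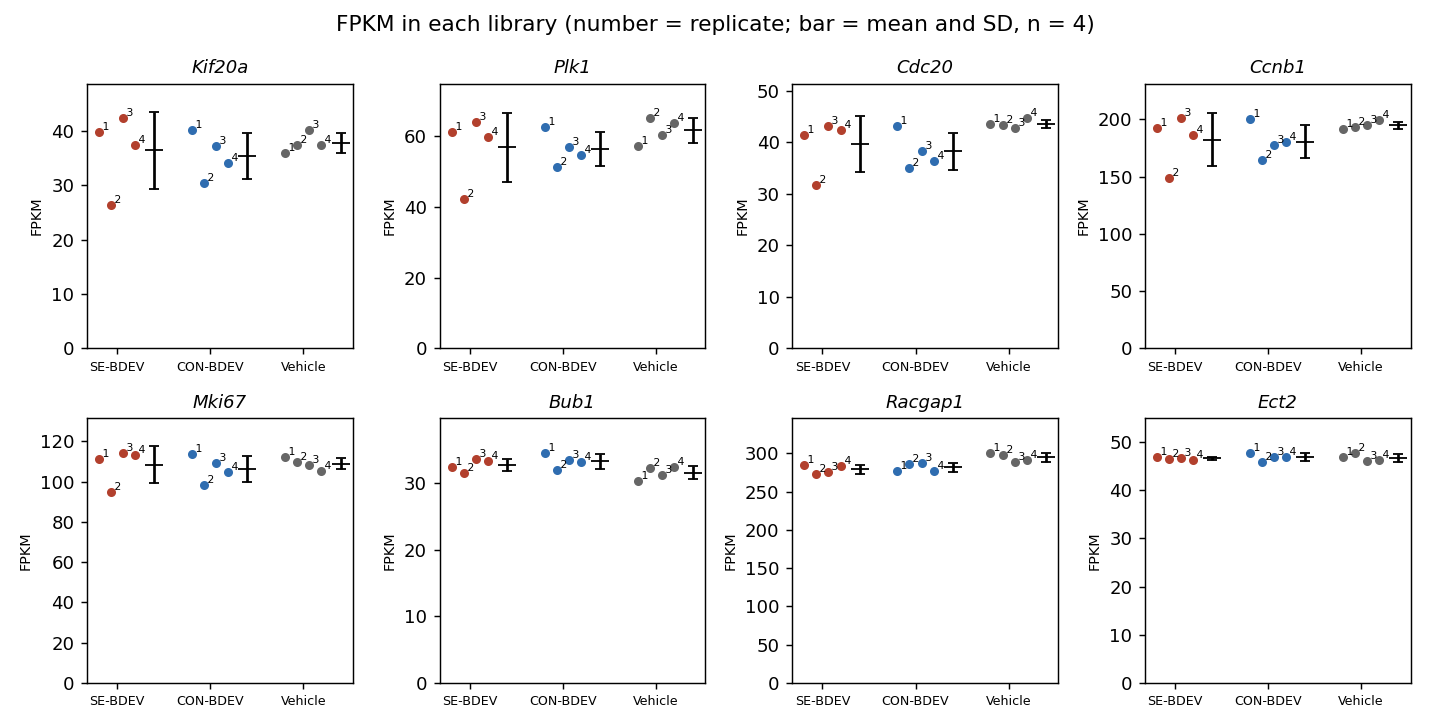
FPKM (axes start at 0) of 8 members in each library. Points are libraries, labelled with their replicate number and coloured by group, and black bars are the mean and SD of 4 libraries. SE-BDEV 2 lies far below the other SE-BDEV libraries for Kif20a (26.3 FPKM), Plk1 and Cdc20, and within the group for Ect2.

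SE-BDEV 2 was the library in which the mitotic genes stood lowest. It was the lowest of the 12 libraries at 39 of 55 members, where it was the lowest at 18.4% of all genes, and the lowest of its own 4 at 50 of 55, against 35.8% of all genes. Its mean over the members lay 0.20 below Vehicle on the log2 scale, while SE-BDEV 1, 3 and 4 lay 0.0089, 0.028 and 0.014 above it. Among the vesicle-treated libraries of the other group, CON-BDEV 2 lay 0.12 below Vehicle, CON-BDEV 4 lay 0.068 below, CON-BDEV 3 lay 0.031 below and CON-BDEV 1 lay 0.035 above. CON-BDEV 2 was the lowest of its group at 36 of 55 members, against 30.5% of all genes. With SE-BDEV 2 left out, CON-BDEV 2 was the lowest of the remaining 11 libraries at 32 of 55 members, against 14.6% of all genes. Once SE-BDEV 2 was left out, the median member SD of SE-BDEV fell from 0.11 to 0.037, close to that of Vehicle. Over all genes it fell from 0.090 to 0.070. Without CON-BDEV 2 the median member SD of CON-BDEV went from 0.081 to 0.071. Leaving out the library that is lowest at most members tends to lower their SD, so these values are descriptions. At the other end SE-BDEV 3 was the highest library at 12 members (15.5% of all genes) and CON-BDEV 1 at 11 (8.25% of all genes).

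SE-BDEV 2 lay below the mean of SE-BDEV 1, 3 and 4 at 54 of 55 members, by a median of -0.19, and at 18 members by more than 0.3, against a median of -0.014 and 3.66% past that mark over all genes. The members differed in how far they moved. Kif20a, the midzone kinesin MKLP2 that brings Aurkb to the central spindle, stood at 39.9, 26.3, 42.4 and 37.5 FPKM in SE-BDEV, 40.2, 30.4, 37.2 and 34.0 in CON-BDEV and 36.0, 37.4, 40.3 and 37.5 in Vehicle, and SE-BDEV 2 was 34.1% below the mean of its fellow libraries. The same figure was 31.4% for Plk1 and 27.4% for Aurka. By role the median deviation of SE-BDEV 2 was -0.45 for the kinases (3 genes), -0.39 for anaphase control, -0.26 for midzone and cytokinesis, -0.19 for the spindle, -0.19 for the passenger complex and -0.18 for mitotic entry. It was smaller, at -0.14, -0.12 and -0.087, for chromosome structure, the kinetochore and the checkpoint.

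Members of the same role also differed. Hmmr, a spindle protein partnered with Tpx2, lay -0.44 from its fellow libraries, Cenpf -0.43, Cdc20 -0.41 and Ube2c -0.40. Near 0 lay Ect2, the exchange factor that activates RhoA for cytokinesis, at -0.0049, with Ndc80, the microtubule-binding kinetochore protein, at -0.032, Nek2 at -0.034 and Racgap1 at -0.045. Ncapg, a condensin subunit, was the 1 member above, at 0.13. In relation to the promoters printed above, members with a CHR core had a median deviation of -0.23 (34 genes) and those without -0.12 (13 genes), and for CCAAT both medians were -0.20 (36 and 11 genes). Cdc20, Ube2c, Espl1 and Cdk1, all with both elements, lay between -0.41 and -0.34, while Ckap5 and Bub3, also with both, lay at -0.094 and -0.087. Prc1, Top2a and Kif11, the members of the same 9 whose promoters are not printed, lay in between, at -0.27, -0.18 and -0.18. The printed promoters are thus the ends of a continuous range. These values are descriptions and carry no test.

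CON-BDEV 2 deviated from CON-BDEV 1, 3 and 4 in the same direction at most members, by a median of -0.091, with 47 of 55 below 0. At 47 of 55 members both libraries numbered 2 lay below their own groups, against 34.4% of all genes. Across the 55 members the deviations of both libraries had a Pearson r of 0.74 and a Spearman rho of 0.72, and across all 11312 genes 0.30 and 0.35. Genes are not independent replicates and each axis rests on 1 library against 3. Plk1 lay at -0.53 in SE-BDEV 2 and -0.17 in CON-BDEV 2, Kif20a at -0.58 and -0.28, Hmmr at -0.44 and -0.32, and Ect2 at -0.0049 and -0.039.

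**Figure D4:**
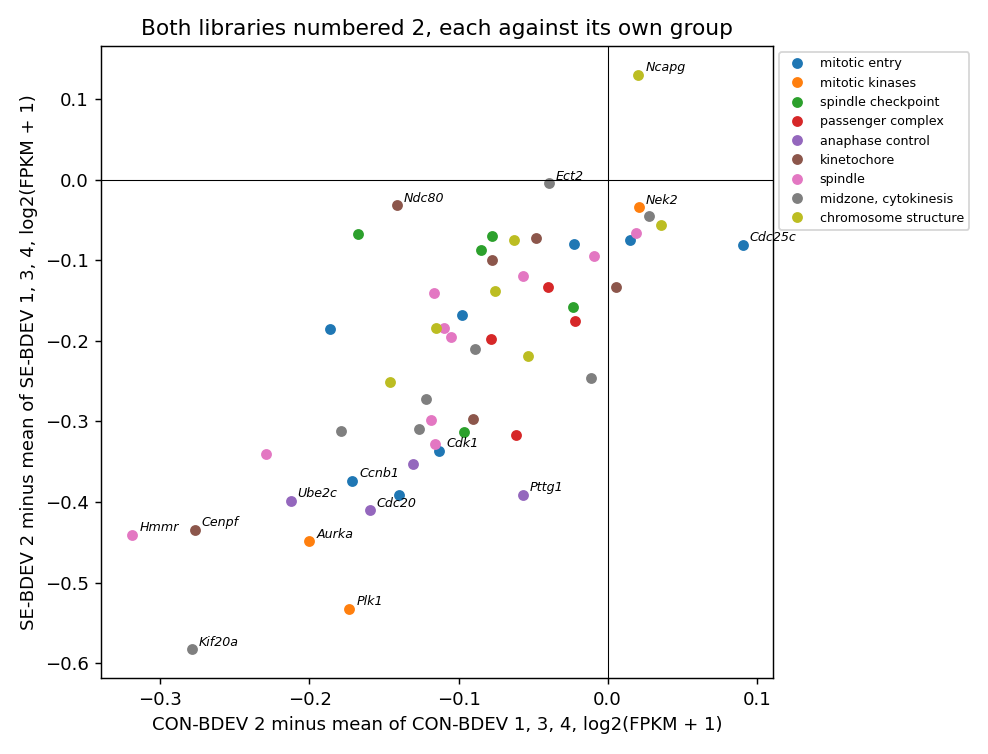
Deviation of CON-BDEV 2 (x axis) and of SE-BDEV 2 (y axis) from the mean of the other 3 libraries of the same group, in log2(FPKM + 1), for the 55 members, coloured by role. Most points lie below 0 on both axes, 47 of 55, with Kif20a and Plk1 lowest and Ncapg alone above 0 on the y axis.

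The members varied together over libraries. After removing group means, the median correlation of a member with the members' mean over the 12 libraries was 0.87, and 34 of 55 exceeded 0.8, where 6.46% of the other genes did. Each member is itself part of that mean and the other genes are not, which favours the members in this comparison. The members share the same 12 libraries in this measure, SE-BDEV 2 among them. Ncapg and Cdc25c were the 2 members with a negative value. The 10 other genes whose pattern was most like the members' mean, each over 12 libraries, were Hsp90aa1 (r = 0.993), Nup205, Fasn, 2610507B11Rik, Med12, Hspa8 (r = 0.985), Rangap1, Uba1, Cse1l and Calm3 (r = 0.977). Hspa8, a constitutive heat shock chaperone, stood at 2179, 1361, 2323 and 2227 FPKM in SE-BDEV, 2256, 1746, 2103 and 1968 in CON-BDEV and 2090.2, 2087, 2103 and 2133 in Vehicle, and lay -0.72 from its fellows in SE-BDEV 2, farther than any member. Fasn, fatty acid synthase, stood at 88.2, 64.9, 95.9 and 92.6 FPKM in SE-BDEV, 93.0, 73.7, 85.6 and 79.8 in CON-BDEV and 108, 106, 108 and 109 in Vehicle, so that all 8 vesicle libraries lay below Vehicle as well.

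Other mitotic genes were taken from lists of the same pathways. Of 13 regulators of the mitotic transcription programme (FoxM1, B-Myb, MuvB and NF-Y subunits), 0 rose and 0 fell in either comparison with Vehicle. Foxm1 differed by 0.059 ± 0.039 in SE-BDEV and 0.0084 ± 0.035 in CON-BDEV, and Mybl2 by -0.0049 ± 0.041 and -0.015 ± 0.039. Of 16 further genes of entry control, Cdkn1a, the cyclin-dependent kinase inhibitor p21, fell in CON-BDEV and was the 1 gene to pass. It stood at 24.7, 29.9, 18.7 and 28.5 FPKM in SE-BDEV, 21.7, 28.6, 26.5 and 23.9 in CON-BDEV and 36.3, 30.7, 34.0 and 33.4 in Vehicle, a difference of -0.41 ± 0.077 (limma adjusted p = 0.0201) in CON-BDEV and -0.41 ± 0.12 (limma adjusted p = 0.163) in SE-BDEV. All 8 vesicle libraries lay below the Vehicle range. With 1 library left out at a time it passed in 4 of 8 fits of CON-BDEV against Vehicle, with limma adjusted p-values of 0.00879 to 0.0709. Whether the 2 vesicle effects on it differ was tested as SE-BDEV against CON-BDEV, which gave 0.0027 ± 0.12 (limma adjusted p = 1.00).

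Of 13 anaphase-promoting complex subunits and partners, Anapc13, a small structural subunit, rose in both vesicle groups, and the other 12 did not pass. It stood at 136, 141, 140.1 and 152 FPKM in SE-BDEV, 141, 132, 128 and 134 in CON-BDEV and 120.2, 121, 119 and 124 in Vehicle, with no overlap with Vehicle, and differed by 0.23 ± 0.037 (limma adjusted p = 0.0220) in SE-BDEV and 0.14 ± 0.032 (limma adjusted p = 0.0400) in CON-BDEV. With 1 library left out at a time it passed in 3 of 8 fits in each comparison, including those without SE-BDEV 2 and CON-BDEV 2, with limma adjusted p-values of 0.0157 to 0.0928 in SE-BDEV and 0.0371 to 0.119 in CON-BDEV. Of 27 other kinetochore genes, Cenph, a subunit of the constitutive centromere network, rose in CON-BDEV and the others did not pass. It stood at 38.8, 46.2, 44.7 and 40.7 FPKM in SE-BDEV, 44.8, 50.2, 42.3 and 44.7 in CON-BDEV and 36.4, 35.7, 38.5 and 39.7 in Vehicle, a difference of 0.27 ± 0.052 (limma adjusted p = 0.0228) in CON-BDEV, past the threshold in 4 of 8 such fits, and 0.18 ± 0.058 (limma adjusted p = 0.192) in SE-BDEV. None of 11 cohesin genes and none of 29 other spindle and cytokinesis genes passed against Vehicle. SE-BDEV 2 was the lowest of 12 libraries at 14 of these 29, with a median deviation of -0.11 from its fellow libraries.

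Genes of the preceding cell cycle phase were taken for comparison. Of 40 G1/S and replication genes, 5 rose in CON-BDEV (Mcm5, Mcm10, Rfc4, Dtl and Exo1) and 0 passed in SE-BDEV. The helicase subunit Mcm5 differed by 0.14 ± 0.032 (limma adjusted p = 0.0455) in CON-BDEV and 0.14 ± 0.040 (limma adjusted p = 0.159) in SE-BDEV, and the clamp loader subunit Rfc4 by 0.22 ± 0.047 (limma adjusted p = 0.0392) and 0.23 ± 0.049 (limma adjusted p = 0.0569). Each of the 5 calls was lost in 6 or more of the 8 fits that left out 1 library, and Rfc4 passed in SE-BDEV without SE-BDEV 2 (limma adjusted p = 0.0446). The list's median lay above Vehicle in all 8 vesicle libraries, at 0.044 to 0.077 in SE-BDEV and 0.032 to 0.099 in CON-BDEV, and SE-BDEV 2 deviated from its fellow libraries by a median of -0.021.

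Genes of the ATF4 response to amino acid and endoplasmic reticulum stress moved with the same libraries in the opposite direction. The median of 24 such genes relative to Vehicle was 0.15 in SE-BDEV 2, against -0.25, -0.35 and -0.090 in SE-BDEV 1, 3 and 4. It was 0.048 in CON-BDEV 2 and -0.32, -0.059 and 0.0042 in CON-BDEV 1, 3 and 4. All 24 lay above the mean of their fellow libraries in SE-BDEV 2, by 0.13 to 1.74 and a median of 0.34. Ddit3, which encodes the stress factor CHOP, stood at 102, 301, 78.7 and 143 FPKM in SE-BDEV, 90.6, 251, 161 and 173 in CON-BDEV and 192, 145, 154 and 153 in Vehicle, and lay 1.52 and 0.88 from its fellows in SE-BDEV 2 and CON-BDEV 2. Atf3 lay 1.74 and 1.01 away. Ddit3 and Atf3 were singled out after their values were seen. At group level 4 genes of the list fell in CON-BDEV (Psat1, Phgdh, Shmt2 and Wars), where 1.82% of all genes fell, and 0 passed in SE-BDEV. With 1 library left out at a time these CON-BDEV calls passed in 3, 2, 5 and 4 of 8 fits, in that order. Without SE-BDEV 2, Phgdh, Shmt2 and Wars also fell in SE-BDEV (limma adjusted p = 0.0141 for each). The part of this response in the members' low values was not tested.

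**Figure D5:**
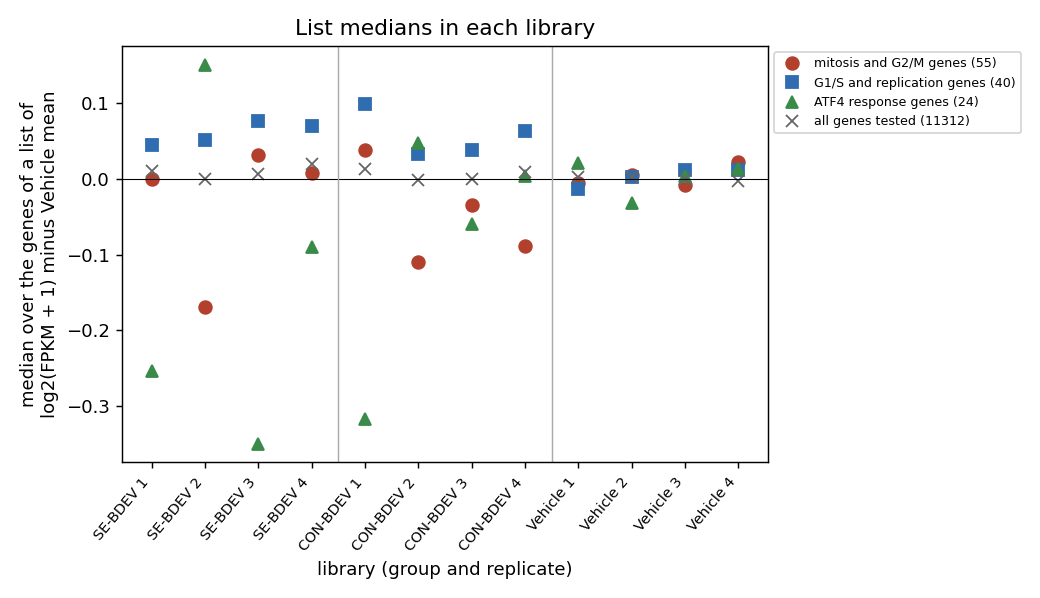
Median over the genes of a list of log2(FPKM + 1) minus the Vehicle mean, in each of the 12 libraries, for the 55 members, 40 G1/S and replication genes, 24 ATF4 response genes and all 11312 genes tested. In SE-BDEV 2 the members lie at -0.17 and the ATF4 genes at 0.15, and all genes close to 0.

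The level of markers of other brain cells differed between lists. None of 8 astrocyte genes reached 1 FPKM, and Gjb6 was listed at 0. The summed level of the 8 was 0.744 to 1.09 FPKM in SE-BDEV, 0.722 to 0.902 in CON-BDEV and 1.04 to 1.25 in Vehicle. Of 8 microglial genes 1, Tmem119, reached 1 FPKM and 7 stood under 0.1 FPKM. Of 6 endothelial genes 1 reached 1 FPKM. Of 8 forebrain neuron genes 2 reached it, with summed levels of 9.46 to 11.7 FPKM in SE-BDEV, 9.35 to 10.7 in CON-BDEV and 10.2 to 10.9 in Vehicle. Of 8 oligodendrocyte genes 3 reached it, led by Cnp, with summed levels of 16.8 to 19.9 FPKM in SE-BDEV, 17.0 to 18.7 in CON-BDEV and 17.3 to 18.8 in Vehicle. Only the markers that reached 1 FPKM were tested: 3 oligodendrocyte, 1 microglial, 1 endothelial and 2 forebrain neuron genes, and 0 astrocyte genes. None of those tested passed in any comparison, and the other markers of these lists could not be called. Of the 12 sympathoadrenal markers tested, 3 rose in SE-BDEV (Dbh, Ddc and Chga), where 0.292% of all genes rose, while 7 rose and 1, Stmn2, fell in CON-BDEV, where 1.02% of all genes rose and 1.82% fell. With 1 library left out at a time, Dbh and Chga passed in SE-BDEV in 4 of 8 fits each and Ddc in 1. In CON-BDEV Ddc passed in 5 of 8 such fits, Stmn2 in 3, and Phox2a, Hand2, Gata3, Dbh, Chga and Chgb in all 8. The part of that shift in the members' values was not tested.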

How the data were processed

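RNA of N2a cells was measured by polyA RNA-seq in 4 libraries each of SE-BDEV, CON-BDEV and Vehicle, with a directional library kit, per the labels' protocols. Groups and replicate numbers come from the sample titles. TopHat2 and Cuffdiff were used with the mm9 genome, per the submitters' processing notes; the sources used here do not give their versions, the annotation or the strand setting. The authors deposited FPKM per gene and library in 2 tables, each with 1 vesicle group and the same Vehicle libraries, whose values differed between tables by a factor within 0.0335% of 1. They also deposited Cuffdiff results with a log2 fold change, a test statistic (a score, not used), a p-value and a q-value for each gene. No deposited file used here holds read counts.

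The 55 members and all gene lists were chosen with earlier results of these data known, so no list was tested. Genes that averaged 1 FPKM or more were fitted as log2(FPKM + 1) with limma 3.58.1 (R 4.3.3; empirical Bayes with a variance trend, two-sided, Benjamini-Hochberg over all genes, threshold 0.05). Comparisons with Vehicle used the 8 libraries of their own table. SE-BDEV against CON-BDEV, and both against Vehicle, used 1 fit of 12 libraries, with Vehicle as the mean of its columns in both tables. Differences are given ± their standard error. The fit was tested on simulated data. Depth was estimated from the FPKM step of 1 fragment, and covers counting error only. Nothing states that the libraries within a group are separate cultures, so p-values reflect only variation among these libraries, which may be technical. An exact permutation test of 4 against 4 libraries could not go below p = 0.0286.

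Values in every library are given for members among the 3 smallest p in each direction of each comparison, 11 leading genes (Cdk1, Ccnb1, Plk1, Bub1, Aurkb, Cdc20, Cenpf, Tpx2, Prc1, Top2a and Mki67) and the 3 members with the largest deviation in the library that was lowest at most members. Other genes are named where they passed in a list or were among the 10 most like the members' mean; Foxm1, Mybl2, Ddit3, Atf3 and the further members with differences only were added for context. The other lists covered regulators of the mitotic programme, entry control, the anaphase-promoting complex, cohesin, other kinetochore and spindle genes, G1/S and replication, the ATF4 response, and markers of the sympathoadrenal lineage, astrocytes, oligodendrocytes, microglia, endothelium and forebrain neurons. One marker of the sympathoadrenal list is not reported here. Alternatives were another pseudocount (0.1), no filter or a mean of at least 5 FPKM, median scaling, no variance trend, a replicate block, another set of libraries in the fit, each library left out, and the authors' deposited q-values. Leaving out both vesicle libraries numbered 2 was chosen after seeing the data.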

Additional observations from a re-analysis of the deposited data

Results flagged for a closer look

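Within groups of 4 libraries, 18 of the values checked stood farther from the other 3 than Dixon's criterion allows, out of 165 combinations of member and group plus the members' mean. Chance flags about 1 in 20 such groups when they are independent. The members vary together, so 1 low library can flag many of them at once, and the count does not measure an excess over chance. Of the 18, 14 were low values in SE-BDEV 2. The mean of the 55 members in SE-BDEV 2 lay -0.20 (log2) from Vehicle, below the 3 other libraries of its group.

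Single members that were low in SE-BDEV 2 by the same criterion were Cdc20 at 31.6 FPKM against 41.5 to 43.1 in the other SE-BDEV libraries, Plk1 at 42.4 against 59.9 to 64.0, and Espl1 at 27.8 against 35.6 to 35.9. Among checkpoint genes Bub1b stood at 44.6 FPKM (others 55.1 to 55.9) and Ttk at 18.6 (20.8 to 21.0). Among spindle genes Kif11 stood at 39.9 FPKM (45.2 to 45.8), Hmmr at 33.5 (44.7 to 47.3) and Tacc3 at 32.9 (41.3 to 43.1). Among cytokinesis genes Kif4 stood at 21.9 FPKM (25.3 to 25.9), Prc1 at 56.4 (67.7 to 69.0) and Anln at 28.9 (35.4 to 37.0). Among genes of chromosome structure Mki67 stood at 94.8 FPKM (111 to 114) and Smc2 at 46.1 (53.3 to 54.4).

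The other 4 lay in other libraries. Nuf2, a kinetochore subunit, was high in CON-BDEV 1 at 45.4 FPKM against 39.5 to 40.3. In Vehicle, Anln was high in library 4 at 38.0 FPKM (35.8 to 36.1), Smc2 was low in library 1 at 53.8 (55.5 to 55.8) and Ncapg was low in library 3 at 31.5 (32.6 to 32.7).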

How the results depend on the processing

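Of 147 recomputed counts and medians over the members, 145 kept to the main value, within 1.5 times for counts and 1 SD between libraries for medians. The limit for medians was wide. In SE-BDEV against Vehicle that SD was 0.092, beside a main median of -0.036. The median of 0.016 without SE-BDEV 2, of opposite sign, therefore still counted as kept. The exceptions were the number of members past the threshold in CON-BDEV against Vehicle, which ranged from 0 to 6 with each library left out (6 without CON-BDEV 1, by limma), and the number wholly below Vehicle in SE-BDEV, which was 2 under median scaling and 1 otherwise. No member was called in the other 3 comparisons under any alternative run. With each library left out the median member difference ran from -0.059 to 0.016 in SE-BDEV against Vehicle, from -0.082 to -0.026 in CON-BDEV against Vehicle, from -0.012 to 0.074 between the vesicle groups and from -0.057 to -0.0094 for both against Vehicle. Over all genes tested the count of calls moved by more than 1.5 times: in SE-BDEV against Vehicle it was 104, but 0 without a filter on low values, 48 with the replicate block, 171 in the fit of 12 libraries and 5 to 315 with 1 library left out; in CON-BDEV it was 321, but 176 without a filter, 183 without the variance trend, 133 in the fit of 12 libraries and 134 to 556 with 1 left out; for both against Vehicle it was 381, but 225 without a filter, 124 to 510 with 1 left out and 695 without both libraries numbered 2. The cause of these shifts was not tested. Replicate numbers did not pair all the samples: deviations of same-numbered libraries correlated at -0.12 to 0.30 over 12 pairs, 2 of them over 0.1. Those 2 were SE-BDEV 1 with CON-BDEV 1 (0.20) and SE-BDEV 2 with CON-BDEV 2 (0.30). The vesicle libraries numbered 3 and 4 gave -0.074 and -0.12, and same-numbered pairs with Vehicle -0.10 to 0.036. Between SE-BDEV and CON-BDEV 2 of 4 libraries correlated best with their own number. Whether some vesicle libraries were handled in pairs was not tested. With the replicate block 0 members passed in each comparison, the calls over all genes in CON-BDEV were 135, and the limma adjusted p-values in CON-BDEV were 0.0965 for Anapc13, 0.0711 for Cdkn1a and 0.0748 for Cenph. The 5 G1/S and 4 ATF4 response genes called in CON-BDEV did not pass with the block either (0.0526 to 0.133). Estimated depth gives a counting SD of up to 0.092 (log2) for the lowest member, so differences near 0.1 in single libraries of the lowest members were not resolvable.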
